A study of Mus musculus with 12 samples.

Results

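DNA methylation was compared between LSK cells of Tet2(-/-) Nras(G12D) mice labelled leukemic and LSK cells of Tet2(-/-) Nras(G12D) mice without leukemia. LSK cells lack lineage markers, carry Sca1 and cKit, and hold the stem and early progenitor cells of the blood. The comparison used 6 of the 12 libraries of the series, 3 titled L_Tet2_Nras and 3 titled Tet2_Nras. The other 6 libraries, 3 of Tet2(-/-) and 3 of Nras(G12D) mice, carry a single mutation and served to set classes of CpGs without using the libraries compared. All animals were C57BL/6 and 6 months old, both mutations are conditional and act in blood-forming tissue per the series design, and the LSK cells were sorted from bone marrow. The driver of the conditional alleles is not named in the labels, and wild-type cells were not analysed here. The leukemic state is known here by the L that opens 3 titles together with the series design, so these are called libraries labelled leukemic, or leukemic for short. The labels' descriptions name them TN-BMT, TN-BMT2 and TN-BMT3 without explaining the abbreviation, and whatever it stands for cannot be told apart from leukemia here. The labels do not say that the 3 libraries of a group came from separate animals, so the p-values cover library-to-library spread, which may be technical. The LSK gate could not be checked, since methylation is not a measure of its surface markers.

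Tet2 oxidises methylated cytosine and so helps to remove methylation, while Nras(G12D) is a GTPase held in its active, signalling state. Both are mutated in myeloid neoplasms. In mammalian genomes most CpGs are methylated, and the unmethylated ones cluster in CpG islands, which often cover gene starts. Active enhancers tend to be partly methylated.

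Methylation was read by reduced representation bisulfite sequencing, in which DNA is cut at CCGG sites by MspI, so that reads concentrate in CpG-rich DNA. Coverage summed over the listed cytosines was 133069618 to 199736369 in leukemic and 115818046 to 129362137 in nonleukemic libraries. A read counts in these sums once for each listed cytosine it covers. A total of 1024331 autosomal CpGs had at least 10 reads in each of the 6 libraries, with a median coverage of 99 to 139 reads in leukemic and 89 to 98 in nonleukemic libraries. Mitochondrial CpGs read as methylated at 0.404% to 0.924% in leukemic and 0.392% to 0.849% in nonleukemic libraries. Leukemic replicate 2 and nonleukemic replicate 1 gave the high ends.

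Mean methylation was lower in each leukemic library than in any nonleukemic library. Over all tested CpGs the leukemic libraries had 32.4%, 31.1% and 31.9%, and the nonleukemic libraries 34.2%, 34.1% and 34.2%. The means were 31.8% ± 0.679 in leukemic and 34.2% ± 0.0615 in nonleukemic libraries (SD, n = 3 each), a difference of -2.40 percentage points. The two-sided exact permutation p was 0.1, the smallest that 3 against 3 libraries can give, so this test cannot pass a threshold of 0.05 here.

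The difference lay in CpGs that carry methylation. At the 285408 CpGs with over 80% methylation in the single mutants, the leukemic libraries had 90.1%, 86.5% and 89.0%, against 94.4%, 94.2% and 94.4% in the nonleukemic libraries. At the 62723 CpGs of 20 to 80%, they had 47.7%, 45.0% and 46.2%, against 55.1%, 54.8% and 54.3%. The groups did not overlap in either class, with differences of -5.77 and -8.50 points and an exact permutation p of 0.1 each (0.125 after adjustment over the classes). At the 567514 CpGs under 20%, the mean was 1.20% ± 0.0953 in leukemic and 1.21% ± 0.0358 in nonleukemic libraries (SD, n = 3 each), the libraries overlapped, and the exact permutation p was 1. The single mutants stood near the nonleukemic level over 80%, with 95.2% in Tet2(-/-) and 94.0% in Nras(G12D), although the classes were set on them. At 20 to 80%, Tet2(-/-) had 56.0% and Nras(G12D) 51.3%. There Nras(G12D) lay between the nonleukemic mean of 54.8% and the leukemic mean of 46.3%. A difference was thus seen in methylated DNA and was not detectable in unmethylated DNA.

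**Figure D1:**
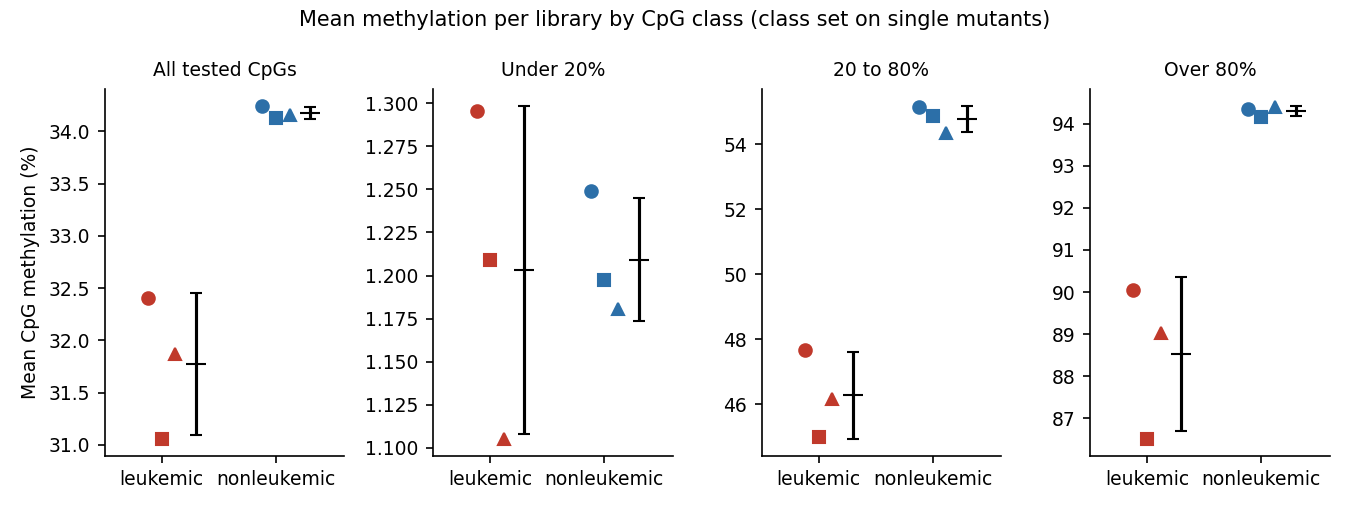
Mean CpG methylation (%) of each library over all tested CpGs and in 3 classes set on the single mutants, leukemic left of nonleukemic; markers are libraries (circle, square and triangle for replicates 1, 2 and 3), bars the mean ± SD, and each panel has its own axis that does not start at 0. The 3 leukemic libraries lie below the 3 nonleukemic ones except at CpGs under 20%, where both groups are near 1.2%.

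The 3 leukemic libraries shared the direction and differed in size and shape. Over 80%, leukemic replicates 1, 2 and 3 were -4.24, -7.79 and -5.28 points from the nonleukemic mean, and at 20 to 80% they were -7.10, -9.78 and -8.61 points from it. Replicate 2 was the lowest in both classes with CpGs weighted equally. Weighted by coverage, the differences over all CpGs were -3.02, -3.86 and -4.42 points in replicates 1, 2 and 3, against -1.77, -3.12 and -2.31 with equal weights, so that replicate 3 was then the lowest. The SD between leukemic libraries over 80% was 1.83 points, and that between nonleukemic libraries 0.125.

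The shape was examined in tiles of 1000 bp with at least 3 tested CpGs, of which 49008 lay over 80% in the single mutants. In these tiles the median difference from the nonleukemic mean was -2.24 points in leukemic replicate 1, -6.33 in replicate 2 and -2.59 in replicate 3. The 10th percentile of tiles lay at -16.3, -18.8 and -19.9 points in the same order. Replicate 2 was thus shifted over most tiles, with 73.0% of them below its lowest nonleukemic counterpart. Replicates 1 and 3 had 50.0% and 51.4% of tiles below the lowest nonleukemic library, and a long tail of deep falls. The share above the highest nonleukemic library was 23.3% in replicate 1, 6.72% in replicate 2 and 27.4% in replicate 3. Replicate 3 had the deepest tail, since its lowest 5% of tiles lay at or below -28.2 points, against -22.6 in replicate 1 and -24.3 in replicate 2. For scale, the lowest 5% of tiles of a nonleukemic library lay at or below -6.14 to -6.87 points from the mean of the other nonleukemic libraries.

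**Figure D2:**
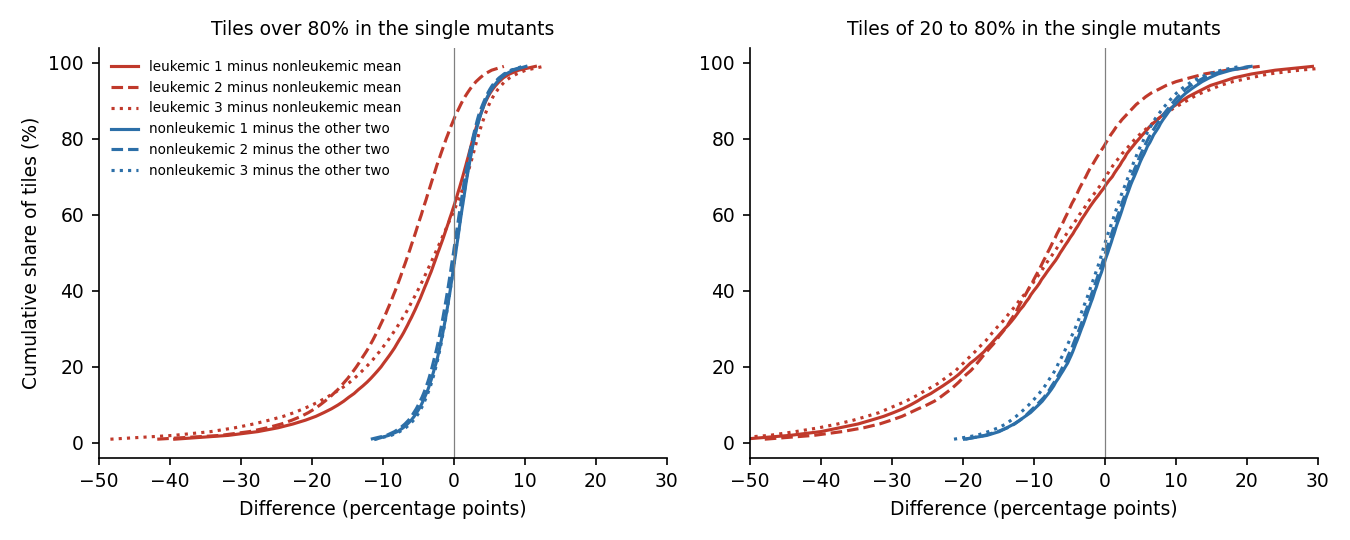
Cumulative share of tiles (%) against the difference in methylation (percentage points), for each leukemic library minus the nonleukemic mean (red) and each nonleukemic library minus the mean of the other nonleukemic libraries (blue), in tiles over 80% (left) and of 20 to 80% (right). Leukemic replicate 2 is shifted as a whole over 80% (median -6.33), while replicates 1 and 3 have medians of -2.24 and -2.59 and long lower tails.

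The states of single CpGs also differed between the leukemic libraries. The share of CpGs between 10% and 90% was 17.0%, 23.2% and 14.6% in leukemic replicates 1, 2 and 3, and 14.5% to 15.3% in nonleukemic libraries. The share read as methylated in every read was 16.5%, 9.47% and 20.1% in leukemic and 10.7% to 11.9% in nonleukemic libraries. In this second share replicate 2 was below the nonleukemic range and replicates 1 and 3 above it, and replicate 2 also had the highest mitochondrial value of the 6 libraries. The part of conversion and of coverage in this contrast was not tested.

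Deep falls were more numerous in leukemic libraries, and in both groups most were in 1 library. A deep fall was counted where a leukemic library lay at least 20 points below the lowest nonleukemic library of the tile. Of 89386 tiles, 8423 had such a fall in 1 leukemic library, 1669 in 2 and 620 in all 3. The private ones numbered 2407 in replicate 1, 2271 in replicate 2 and 3745 in replicate 3. Counted the same way, 147 tiles had at least 1 nonleukemic library 20 points or more below the lowest leukemic one, and 10 of them had all 3. Of tiles with any deep fall, 78.6% had it in 1 library for the leukemic and 70.1% for the nonleukemic group. Rises of a leukemic library over the highest nonleukemic one by at least 20 points were found in 607 tiles in 1 library, 54 in 2 and 10 in all 3. The median SD of a tile over 80% was 6.06 points between leukemic and 2.18 between nonleukemic libraries, and the leukemic SD was the larger in 87.1% of these tiles.

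The tiles where the 3 leukemic libraries fell together were sought with a quasi-binomial model on the 6 libraries, in which calls needed a Benjamini-Hochberg adjusted p below 0.05 and 10 points or more of difference. The model called 1166 of 89386 tiles lower, 1.3%, and 44 higher, 0.0492%. Limma, run on log ratios of the same reads, called 0 in either direction, with an unadjusted p under 0.05 at 10878 tiles lower (12.2%) and 1338 higher (1.5%). The quasi-binomial model gave 15188 (17%) and 1394 (1.56%) at that level. The groups did not overlap in 17794 tiles lower in leukemic libraries (19.9%) and 2253 higher (2.52%). Calls depended on which libraries entered. Without nonleukemic replicate 1, 2 or 3 the model called 82, 53 and 109 tiles lower and 3, 2 and 3 higher. Without leukemic replicate 1 it called 6484 lower and 199 higher, and without leukemic replicate 3 it called 2992 and 95. Without leukemic replicate 2 the counts were 981 and 39. The larger sets held most of the earlier calls: 1150 of the 1166 lower tiles were also called without leukemic replicate 1 and 1143 without replicate 3, but only 725 without replicate 2.

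Over the called tiles the 3 leukemic libraries had like medians, while single tiles varied. The median difference from the nonleukemic mean over the 1166 lower tiles was -28.6, -28.1 and -27.9 points in leukemic replicates 1, 2 and 3, although the test itself favours tiles where they agree. The weakest of the 3 falls was at least 50% of the strongest in 895 of the 1166 tiles, and the groups did not overlap in 1163. The median SD of a lower tile was 6.79 points between leukemic and 2.80 between nonleukemic libraries. Leukemic libraries had a median level of 50.3% in these tiles, against 88.9% in nonleukemic libraries, and the single mutants had 89.3% in Tet2(-/-) and 84.2% in Nras(G12D). The leukemic mean lay between 20 and 80% in 923 tiles, under 20% in 172 and over 80% in 71. Most of these tiles were thus partly methylated, not emptied, in leukemic cells. Bulk values cannot tell a loss in part of the cells from a partial loss in each.

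The CpGs of a called tile are those that made the call, so their values are a description. Of the 7186 CpGs in the lower tiles, 92.7% had a lower leukemic than nonleukemic mean, and 875 of the 1166 tiles had every CpG lower. In all tiles over 80% in the single mutants, 64.3% of CpGs were lower, and 23.1% of tiles had every CpG lower. Set against the single mutants, the 3 leukemic libraries lay below all 6 single-mutant libraries in 999 of the 1157 lower tiles covered there, 86.3%, beside 10.3% of all tiles. The lower tiles were picked for low leukemic values, which favours a large share, so it is a description and no separate support. The opposite pattern, with the 3 nonleukemic libraries above all 6 single mutants and the leukemic ones not below them, was found in 22 of the 1157 (1.90%), beside 1.03% of all tiles. Both patterns at once were found in 12 of the 1157 (1.04%), beside 0.0380% of all tiles. The 3 leukemic libraries lay above all 6 single mutants in 29 of the 44 higher tiles, 65.9%, beside 0.841% of all tiles, a share that the choice of tiles favours likewise.

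Falls were called mainly in methylated and partly methylated DNA. Of the tiles of 20 to 80% in the single mutants, 399 of 11124 were called lower (3.59%) and 14 higher. Over 80% the counts were 726 of 49008 (1.48%) and 6, and under 20% they were 32 of 26753 (0.12%) and 24. The median difference was -7.15 points at 20 to 80%, -4.51 over 80% and 0.0013 under 20%. Tiles under 20% had a nonleukemic mean of 2.56% and tiles over 80% one of 93.6%, so a call of 10 points or more downward in a typical low tile, or upward in a typical high tile, is out of reach.

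Among tiles over 80%, the share called lower was 0.969% with 3 tested CpGs and 2.95% with 15 or more. The median difference ran the other way, with -5.14 points at 3 CpGs and -2.68 at 15 or more. The share called lower was also larger near unmethylated CpG-dense DNA. At 1 to 2 kb from a CpG-dense unmethylated tile (at least 10 CpGs, under 10% in the single mutants) 3.02% of tiles were called lower with a median of -5.40 points, and beyond 200 kb 0.576% with a median of -3.78. Between these the share was 1.88% at 3 to 10 kb, 1.75% at 11 to 50 kb and 1.33% at 51 to 200 kb, while the median was -4.50, -4.60 and -4.73 points and so did not follow the share. By tested CpGs per megabase, 0.683% of tiles were called lower in the sparsest of 5 equal bins and 1.46% to 1.94% in the others, with medians of -3.74 points and of -4.44 to -4.92 points. Chromosomes ranged from 0.908% on chromosome 14 to 1.62% on chromosome 5, and the median difference over all tiles was below 0 on each.

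**Figure D3:**
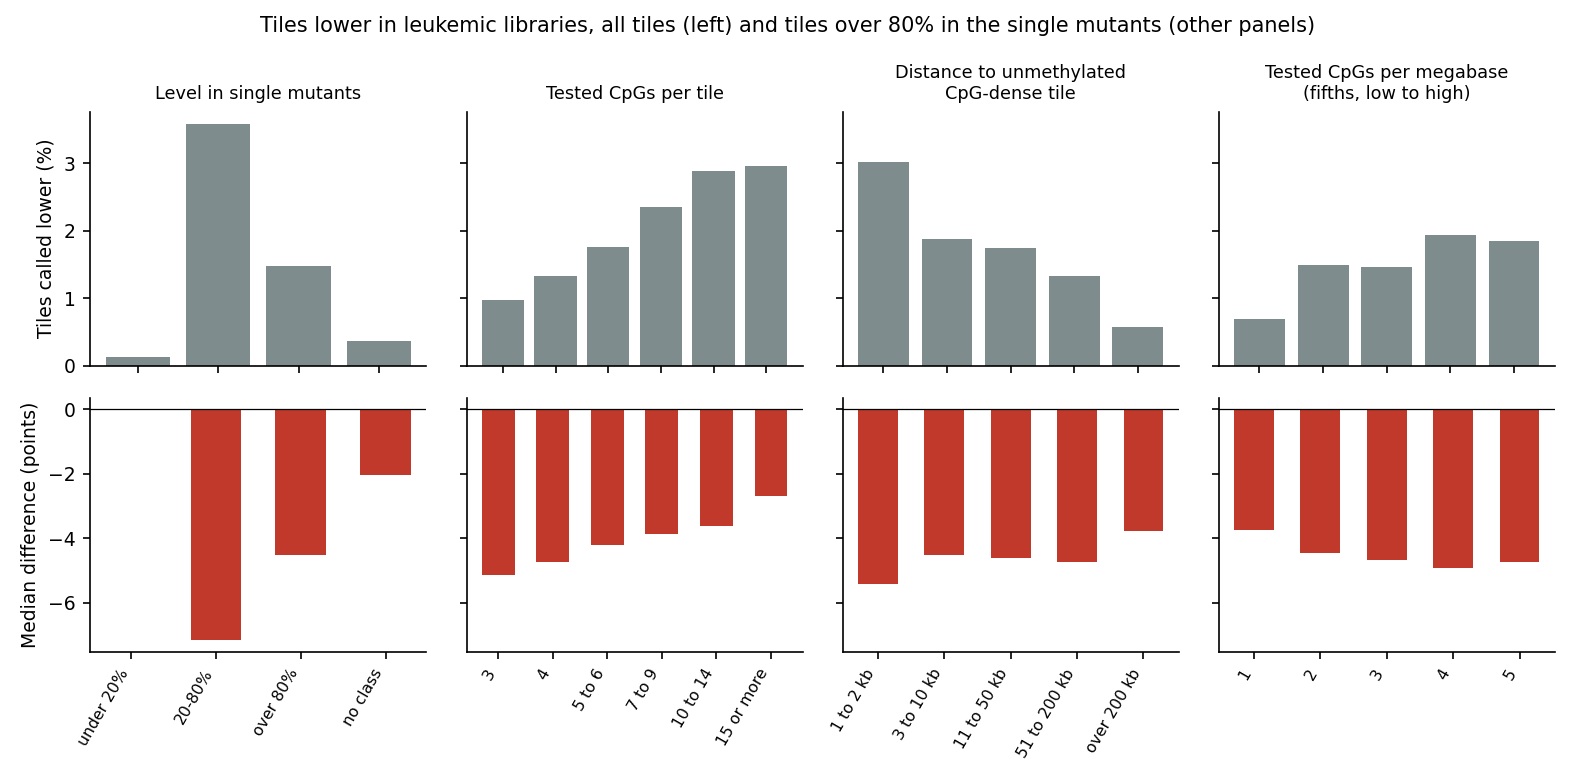
Share of tiles called lower in leukemic libraries (%, upper row) and median difference, leukemic minus nonleukemic (percentage points, lower row), by level in the single mutants for all tiles and, for tiles over 80%, by tested CpGs per tile, by distance to an unmethylated CpG-dense tile and by tested CpGs per megabase. The share called rises with CpGs per tile (0.969% to 2.95%) while the median difference shrinks, and the share called falls with distance from unmethylated CpG-dense tiles (3.02% to 0.576%).

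The 10 largest falls, taken from called tiles that hold 5 or more CpGs and whose groups do not overlap, ended at leukemic means of 2.74% to 31.7%, against 70.4% to 95.1% in nonleukemic libraries, with differences of -79.5 to -62.5 points. The 10 largest rises were smaller, 25.2 to 34.7 points, and left the leukemic libraries at 37.9% to 80.9%, against 7.33% to 46.6% in nonleukemic libraries. Some of the largest falls were uneven. On chromosome 8 at 35160000 to 35160999 (mm9, as are all positions given here) the leukemic libraries had 38.3%, 3.15% and 0%, against 93.2%, 91.8% and 94.9% in the nonleukemic libraries (adjusted p = 0.0283). Others were even. On chromosome 6 at 143781000 to 143781999, a tile of 16 CpGs with 1066 to 1777 reads per library, the leukemic libraries had 30.9%, 33.0% and 21.0%, against 96.5%, 92.3% and 94.0% (adjusted p = 0.000214). Of these 20 tiles, 6, 4 and 5 remained called without nonleukemic replicate 1, 2 and 3, 14 without leukemic replicate 2, and all 20 without leukemic replicate 1 or 3.

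**Figure D4:**
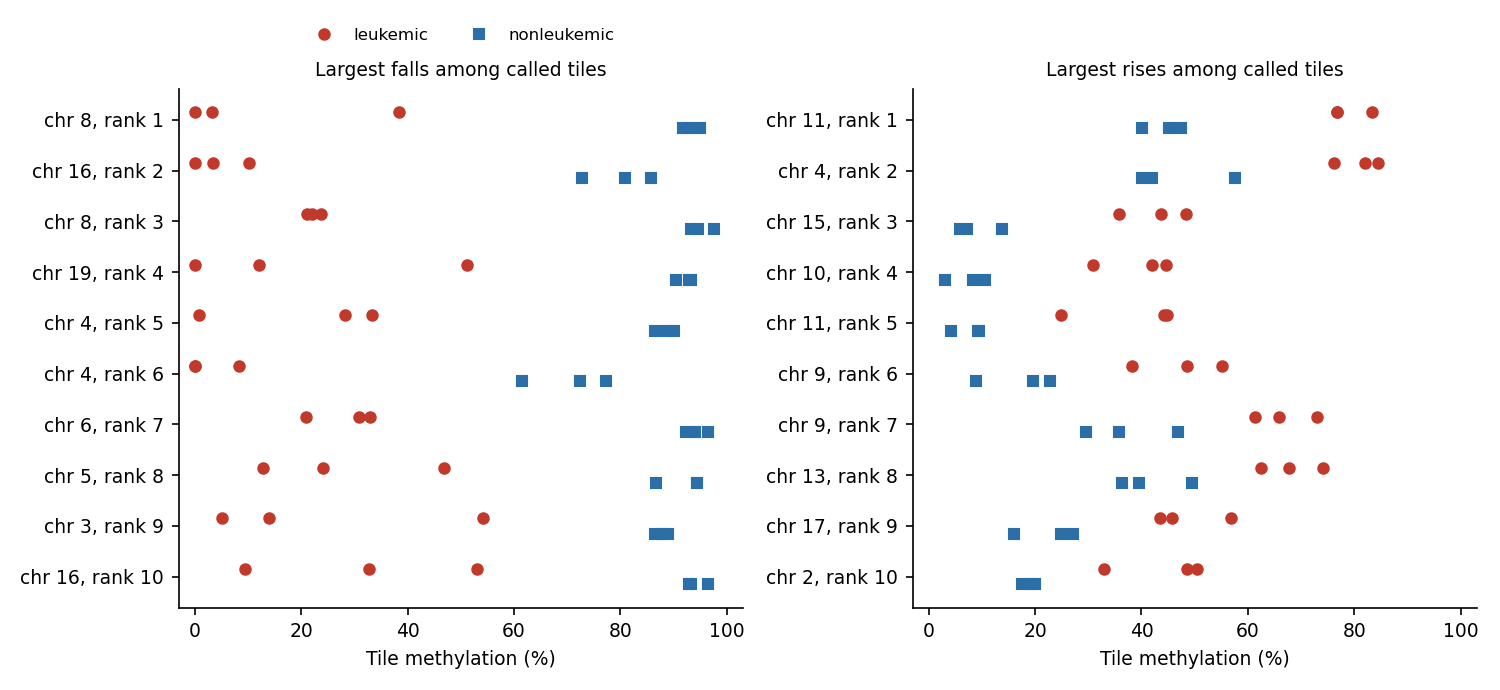
Methylation (%) of the 10 called tiles with the largest fall (left) and the 10 with the largest rise (right) in leukemic (red circles, upper in each pair) and nonleukemic libraries (blue squares), 1 point per library, each tile named by chromosome and rank. The tiles were chosen among those whose groups do not overlap; leukemic libraries are spread widely in some falls (0% to 38.3% in the first) and closely in others.

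The calls that rested on no single library were 51 lower tiles and 1 higher tile, called with all 6 libraries and in each of the 6 fits without 1 library. They were picked out after their values were seen. The lower ones had a median difference of -51.5 points (range -76.3 to -13.7). Gene names given for tiles are those of the nearest placed start unless stated otherwise, and say nothing of regulation.

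The only rise among them lay 575 bp from the start of Cbfa2t3, which encodes a transcriptional corepressor active in blood stem and erythroid cells. This tile on chromosome 8, 125201000 to 125201999, holds 24 tested CpGs with 2581 to 4072 reads per library. The leukemic libraries had 26.9%, 20.3% and 21.6%, against 6.68%, 8.33% and 6.53% in the nonleukemic libraries, a difference of 15.8 points (adjusted p = 0.00329). Without nonleukemic replicate 1, 2 or 3 the adjusted p was 0.04997, 0.0438 and 0.0461, so the call stayed only narrowly under the threshold of 0.05. The leukemic libraries lay above every nonleukemic one, and the single mutants averaged 9.33% in Tet2(-/-) and 9.36% in Nras(G12D).

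A cluster of falls lay nearest to the placed starts of Rpn1, at 32033 and 33033 bp, and Gm38856, at 31863 bp. It also lies farther upstream of Gata2, which is named here by its role and not as the nearest start, and which encodes a transcription factor that maintains blood stem cells. Of 5 tested tiles within 20 kb on chromosome 6, 3 were called lower, beside 1.3% of all tested tiles. The 20 kb were laid around a called pair of adjoining tiles, so this count is no measure of enrichment. The called tiles lay at 77.4, 76.4 and 73.4 kb upstream of the more distal of 2 placed Gata2 starts. In the first, at 88066000 to 88066999, the leukemic libraries had 18.1%, 4.12% and 19.4%, against 68.1%, 69.8% and 65.6% in the nonleukemic libraries (adjusted p = 0.00285). In the second, which adjoins it, they had 16.2%, 3.90% and 20.8%, against 76.8%, 74.1% and 66.2% (adjusted p = 0.00302). In the third, at 88070000 to 88070999, they had 38.5%, 27.1% and 27.8%, against 91.7%, 90.7% and 84.6% (adjusted p = 0.00206). The groups were well apart in all 3 tiles, and the single mutants averaged 55.7% to 96.7%. The first and second lost their call without nonleukemic replicate 2, and the third kept it without any one library. A distal upstream enhancer of Gata2 that acts in progenitors is known in the mouse, but whether these tiles lie in it was not tested. The promoter at the other placed Gata2 start, the less distal one, was unmethylated, with means of 0.645% in leukemic and 0.259% in nonleukemic libraries over 20 CpGs (adjusted p = 0.670). No level is given here for the more distal start, from which the distances were measured. The uncalled tiles of the 20 kb, at 79.4 and 70.4 kb, differed by -23.8 and 5.38 points, the latter from a nonleukemic mean of 0.417%. This cluster was picked out after its values were seen.

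Other falls that held without any one library included the tiles nearest to the placed starts of Btg2, E2f8 and Stat5a. They are examples out of the 51. Falls of -75.3, -72.8 and -72.5 points, nearest to Tmem44, Tubb3 and Mast4, held likewise, and no theme of gene function was tested. The tile 7768 bp from Btg2, an antiproliferative gene, had 29.9%, 13.1% and 6.16% in leukemic libraries, against 89.6%, 94.0% and 94.4% in nonleukemic libraries. The tile 13466 bp from E2f8, a repressor among the E2F cell cycle factors, had 19.4%, 21.4% and 19.1%, against 98.2%, 98.0% and 89.6%. The tile 19702 bp from Stat5a, a transcription factor of cytokine signalling, had 45.3%, 40.8% and 46.8%, against 93.5%, 91.9% and 85.8%. These tiles have 4, 4 and 6 CpGs, the leukemic and nonleukemic libraries are far apart in each, and the adjusted p was 0.00185, 0.000496 and 0.00152. A pair of adjoining tiles on chromosome 19, 5756000 to 5757999, with 14 and 19 CpGs, had leukemic levels of 22.7% to 25.7% and 9.44% to 14.4%, against 57.2% to 66.0% and 51.5% to 57.2% in nonleukemic libraries. It was 1 of 11 pairs of adjoining called tiles, all lower, and no run of called tiles was longer than 2.

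In a few of the called tiles the nonleukemic libraries stood apart from all the others. On chromosome 12 at 70683000 to 70683999, with 27 CpGs, the leukemic libraries had 0.853%, 0.279% and 0.0175%, against 11.1%, 19.8% and 8.68% in the nonleukemic libraries (adjusted p = 0.00358), and the single mutants averaged 0.284% in Tet2(-/-) and 0.381% in Nras(G12D). The call was lost without nonleukemic replicate 2. On chromosome 6 at 116601000 to 116601999, with 10 CpGs, leukemic libraries averaged 10.7% ± 1.37 and nonleukemic libraries 63.0% ± 17.4 (SD, n = 3 each; adjusted p = 0.00358), while Tet2(-/-) averaged 17.0% and Nras(G12D) 10.9%. Within 1 Mb of this tile lay 17 positions covered in one of the groups only. A call of lower in leukemic libraries is in such tiles a higher level in the nonleukemic ones.

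Promoters were taken as 300 bases around gene starts, 250 before and 50 after, from RefSeq sequences of build GRCm38.p6 that were placed on the files' mm9 positions by the spacing of their CpGs. Of these, 8517 had at least 3 tested CpGs. In 7710 of them the level was under 5% in all 6 libraries, and the mean over all was 2.51% ± 0.104 in leukemic and 2.62% ± 0.0430 in nonleukemic libraries (SD, n = 3 each; exact permutation p = 0.3). Promoters over 80% in the single mutants, 126 in number, averaged 86.3% ± 1.93 in leukemic and 92.2% ± 0.134 in nonleukemic libraries (SD, n = 3 each; exact permutation p = 0.1). The quasi-binomial model called 2 promoters lower (0.0235%) and 0 higher. At an unadjusted p under 0.05 it gave 454 lower (5.33%) and 334 higher (3.92%), and limma called 0 and gave 394 (4.63%) and 157 (1.84%). The groups did not overlap in 582 promoters lower in leukemic libraries (6.83%) and 301 higher (3.53%).

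The 2 called promoters are those of Rhd, which encodes the Rh blood group protein of the red cell membrane, and Muc20, which encodes a membrane mucin. Their sequences are printed because they carry the only promoter calls, with that of Lcat, the plasma enzyme that esterifies cholesterol, as a promoter that differed in only part of its length. RefSeq sequences of build GRCm38.p6 are given on the strand of the gene with the tested CpGs in capitals. The placements of Rhd and Muc20 rest on 6 matched CpGs each, with 4 and 3 at the next best place.
Rhd: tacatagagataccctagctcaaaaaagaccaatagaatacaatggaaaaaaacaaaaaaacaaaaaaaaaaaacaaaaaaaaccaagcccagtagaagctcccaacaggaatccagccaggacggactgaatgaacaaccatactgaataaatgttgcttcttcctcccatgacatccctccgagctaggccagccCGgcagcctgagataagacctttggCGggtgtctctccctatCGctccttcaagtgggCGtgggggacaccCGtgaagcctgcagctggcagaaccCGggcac
Muc20: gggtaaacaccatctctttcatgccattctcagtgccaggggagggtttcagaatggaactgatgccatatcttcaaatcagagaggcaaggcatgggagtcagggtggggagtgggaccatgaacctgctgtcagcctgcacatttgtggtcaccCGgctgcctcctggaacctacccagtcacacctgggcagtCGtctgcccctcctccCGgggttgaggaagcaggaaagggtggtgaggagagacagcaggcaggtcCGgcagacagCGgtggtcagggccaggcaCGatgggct
Lcat: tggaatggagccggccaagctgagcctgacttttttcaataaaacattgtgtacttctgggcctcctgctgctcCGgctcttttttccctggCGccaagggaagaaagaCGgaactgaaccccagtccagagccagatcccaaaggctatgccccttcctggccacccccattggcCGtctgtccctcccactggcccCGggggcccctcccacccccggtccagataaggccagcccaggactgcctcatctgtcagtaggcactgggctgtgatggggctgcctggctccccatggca

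The Rhd promoter had 6 tested CpGs between positions 134420398 and 134420494 of chromosome 4 (mm9). The leukemic libraries had 37.5%, 17.8% and 30.1%, against 85.8%, 89.7% and 93.3% in the nonleukemic libraries. The groups were far apart and differed by -61.1 points (adjusted p = 0.0277). The single mutants ranged from 69.4% to 97.2%. The fall was seen at each of the 6 CpGs, where the leukemic mean was 25.9% to 35.3% and the nonleukemic mean 86.6% to 93.9%. The promoter call was lost without nonleukemic replicate 1, 2 or 3 (adjusted p = 0.288, 0.791 and 0.694), while the 1000 bp tile around it, with 10 CpGs, remained called without any one library. In that tile the leukemic libraries had 44.8%, 24.1% and 45.4%, against 88.9%, 89.1% and 93.9% in the nonleukemic libraries (adjusted p = 0.00255). The sequence holds AGATAA, the letters of a GATA motif, once, with its first base at -43 from the start. Lcat, which was not called, holds them at -27. Muc20, which was called, does not hold them, nor do Hoxa5 and Spry2, which were not called. Of the 8517 tested promoters, 376 (4.41%) hold these letters on either strand. The motif and the promoters looked up for it were chosen after the values were seen. Its share among promoters with lower leukemic levels was not counted, so a link between motif and falls was not tested.

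The Muc20 promoter had 6 tested CpGs between positions 32797479 and 32797614 of chromosome 16 (mm9). The leukemic libraries had 31.7%, 34.0% and 42.7%, against 68.9%, 79.2% and 74.9% in the nonleukemic libraries. The groups did not overlap, and the difference was -38.2 points (adjusted p = 0.0457). Single CpGs differed by unequal amounts. The CpG at -53 bases from the start had 2.83%, 13.7% and 49.7% in leukemic libraries and a nonleukemic mean of 79.8% ± 8.04 (SD, n = 3), while the one at 23 bases had 70.7%, 79.3% and 66.7% in leukemic libraries, against 93.8%, 98.3% and 78.1% in the nonleukemic libraries. Nras(G12D) stood between the groups with 52.7% ± 7.34, and Tet2(-/-) had 72.4% ± 0.421 (SD, n = 3 each). For promoter Muc20 the call was lost without leukemic replicate 2 (adjusted p = 0.124) and without nonleukemic replicate 1, 2 or 3 (0.288, 0.791 and 0.788), while the surrounding tile, with 10 CpGs, remained called without any one library.

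The Lcat promoter was not called (difference of -24.5 points, adjusted p = 0.522) and is described after its values were seen. Its 3 upstream CpGs, at -175 to -140 bases from the start, had leukemic means of 89.4% to 100% and nonleukemic means of 94.2% to 97.5%. The CpG at -73 bases had 38.7%, 36.5% and 66.9% in leukemic libraries, against a nonleukemic mean of 95.4% ± 0.526 (SD, n = 3). At -51 bases, leukemic replicate 3 read 100% and the other leukemic libraries 55.8% and 29.6%, so the groups overlapped there. On the other side, no promoter was called higher. In the promoter of Hoxa5, a homeobox gene of blood and axial development, only 5 of 29 CpGs were tested, at -235 to -213 bases from the start. Its placement rests on 8 matched CpGs, with 6 at the next best place. These 5 CpGs had 95.7%, 84.6% and 82.5% in leukemic libraries, against 76.0%, 76.6% and 72.0% in the nonleukemic libraries, with no overlap and an adjusted p of 0.528. The Hoxa5 promoter was likewise chosen after its values were seen.

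**Figure D5:**
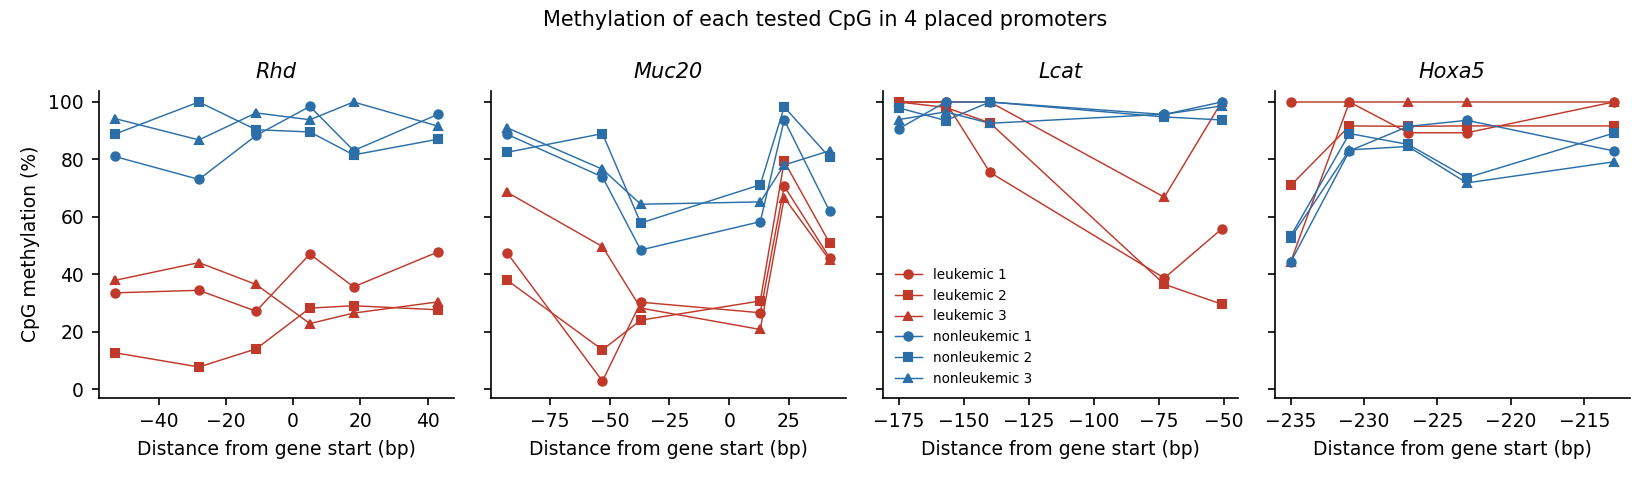
Methylation (%) of each tested CpG against its distance from the gene start (bp) in the promoters of Rhd, Muc20, Lcat and Hoxa5, for 3 leukemic (red) and 3 nonleukemic libraries (blue). Leukemic libraries lie below nonleukemic ones at every CpG of Rhd, differ at some CpGs more than at others in Muc20 and Lcat, and leukemic means lie above nonleukemic ones at each of the 5 CpGs of Hoxa5.

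Among tiles over 80% in the single mutants, 1.94% were called lower up to 1 kb from a placed gene start (5 of 258 tiles), 1.93% at 1 to 10 kb, 1.74% at 10 to 50 kb and 1.24% beyond 50 kb. Within 1 kb of a placed start, measured from the middle of the tile, lay 23 of the 1166 lower tiles (1.97%) and 2 of the 44 higher ones, beside 14.4% of all tested tiles, which include unmethylated tiles that cannot fall by 10 points. The called ones include the tiles of Rhd, Muc20 and Cbfa2t3. At Mfsd2b, which encodes the transporter that exports sphingosine 1-phosphate from red cells and platelets, the tile 665 bp from the start had 31.7%, 17.6% and 18.6% in leukemic libraries, against 78.0%, 68.8% and 61.1% in the nonleukemic libraries (adjusted p = 0.00904). At Lfng, a glycosyltransferase that modifies Notch receptors, a tile of 21 CpGs had 4.67%, 7.46% and 9.93%, against 21.0%, 17.1% and 17.5% (adjusted p = 0.0227). At Srsf1, a splicing factor, a tile of 9 CpGs had 29.9%, 29.5% and 13.6%, against 52.9%, 56.0% and 54.1% (adjusted p = 0.0287). The groups did not overlap in any of these 3. Mfsd2b lost its call without nonleukemic replicate 1 or 2, Srsf1 without any one nonleukemic library, and Lfng without leukemic replicate 1 or 2 or any one nonleukemic library. Of the 25 tiles near starts, 3, 3 and 4 remained called without nonleukemic replicate 1, 2 and 3, 17 without leukemic replicate 2 and 24 without leukemic replicate 1.

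No promoter of 8 gene lists for blood and Ras signalling was called, and for 1 list, of erythroid and megakaryocyte genes, no member could be tested. Of 163 genes on the lists, 69 had a tested promoter. Of these 0 were called, beside 2 of all 8517 tested promoters (0.0235%). Calls were too rare over all promoters for a count of 0 to set the lists apart. Of the 69, 65 were under 5% in all 6 libraries, 94.2%, which is near the 90.5% of all tested promoters. A promoter under 5% cannot fall by the 10 points that a call needs. The tested promoters numbered 15 of 27 for Ras-MAPK feedback, 7 of 24 for stem cell transcription factors, 7 of 24 for myeloid factors and granule genes, 9 of 18 for lymphoid factors, 0 of 16 for erythroid and megakaryocyte genes, 5 of 15 for growth factor receptors, 11 of 16 for DNA methylation enzymes and 16 of 30 for tumour suppressors hypermethylated in myeloid neoplasms. The median difference per list ran from -0.326 points for the receptors to 0.251 for the stem cell factors, beside 0.00646 over all promoters. The member with the lowest unadjusted p was Tdg, which encodes a glycosylase that removes oxidised methylcytosine, with a difference of 0.384 points (adjusted p = 0.528). At Spry2, a feedback inhibitor of Ras signalling, 20 CpGs averaged 0.553% ± 0.958 in leukemic and 0.241% ± 0.234 in nonleukemic libraries (SD, n = 3 each; adjusted p = 0.773). The largest difference among the members was -5.30 points at Csf2ra, the GM-CSF receptor alpha chain, with 50.2%, 38.8% and 84.6% in leukemic libraries, against 63.4%, 59.1% and 67.0% in nonleukemic libraries (adjusted p = 0.762). Without leukemic replicate 2 the difference at Csf2ra was 4.23 points.

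No single CpG was called. The quasi-binomial model called 0 of 1024331 CpGs (0%) in either direction, where a call needed an adjusted p below 0.05 with 25 points or more, with a smallest adjusted p of 0.151, and limma called 0 (smallest adjusted p = 0.177). At an unadjusted p under 0.05 the model gave 69460 CpGs lower (6.78%) and 22562 higher (2.2%), and limma 59051 (5.76%) and 17132 (1.67%). The groups did not overlap at 49358 CpGs lower in leukemic libraries (4.82%) and 15139 higher (1.48%).

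The groups also differed in which positions were covered. A total of 795 strand positions had at least 20 reads in each leukemic library and were listed in no nonleukemic library, and 1499 the reverse. Of the first, 265 (33.3%) lay on chromosome 3, the chromosome of Tet2 and Nras, which holds 4.44% of the positions listed in all 6 libraries. Of the second, 370 lay on chromosome 8, 255 on chromosome 3 and 245 on chromosome 12. Of the tiles tested, 4.82% had 10 or more such positions within 1 Mb, beside 65 of the 1166 lower tiles (5.57%) and 9 of the 44 higher ones (20.5%). The median difference was -28.1 points in lower tiles with such neighbours and -29.5 without. The part of sequence differences between the animals in these calls was not tested. With chromosomes 3, 4, 6 and 8 left out, no promoter was called, since Rhd lies on chromosome 4 and the adjusted p of Muc20 was 0.0762.

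On the X chromosome, which was left out of the tests, the leukemic libraries had 50.8%, 48.2% and 48.7%, against 39.5%, 51.3% and 51.3% in the nonleukemic libraries. Nonleukemic replicate 1 stood apart there, the groups overlapped, and the exact permutation p was 1. The same library listed 349 positions on chromosome Y, against 2 to 18 in the others of the comparison. Whether the animals differed in sex was not tested.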

How the data were processed

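Reduced representation bisulfite libraries were aligned with Bismark to mm9 (NCBIM37), per the submitters' processing notes, which give no version. MspI fragments of 150 to 400 bp were read from one end with 50 bp reads, per the labels' protocols. The deposited files give, for each strand position, its coverage and the percent of C and of T reads, with no position under 10 reads. Methylated and unmethylated read counts were recovered from these deposited percent values and coverages, and the strands of a CpG were summed. Positions on autosomes with at least 10 reads in all 6 libraries were kept, without those above the 99.9th percentile of coverage. Read counts carry no molecular identifiers, so intervals of a level from reads alone would cover counting error only.

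Differences were tested on read counts with a quasi-binomial F test (NumPy 2.4.6, SciPy 1.17.1, pandas 2.3.3, Python 3.11.15) on the 6 libraries, with 4 residual degrees of freedom, dispersions moderated as in limma and floored at 1, and Benjamini-Hochberg adjustment over all CpGs, tiles or promoters. Limma 3.58.1 (R 4.3.3) on log2((methylated + 1)/(unmethylated + 1)) was the alternative. Library means were compared with two-sided exact permutation tests. The code was tested on simulated data.

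No mm9 genome or annotation was used. Of 32851 RefSeq promoter entries, 10936 (9660 genes) were placed by matching at least 6 CpGs (numba 0.67.0), with the order of genes checked after the data were seen. Tiles were named as the 10 largest falls and 10 largest rises of called tiles whose groups do not overlap and that hold 5 or more CpGs, promoters where called, and others after their values were seen. The runs to be named by length all tied at 2 tiles. The libraries, lists and tests were chosen with earlier results of these data known. Alternatives covered coverage, strands, chromosomes, depth, weighting, classes, test, libraries, thresholds, tile size and each replicate left out.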

Additional observations from a re-analysis of the deposited data

Results flagged for a closer look

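Signals outside the comparison of methylation levels were found in the coverage of positions. On chromosome 3, 265 positions had at least 20 reads in each leukemic library and were listed in no nonleukemic library. Of these, 215 were listed in all 3 Nras(G12D) libraries and 244 in no Tet2(-/-) library. The reverse, at least 20 reads in each nonleukemic library and no listing in a leukemic one, held for 255 positions on chromosome 3. Of these, 235 were listed in no Nras(G12D) library and 129 in all 3 Tet2(-/-) libraries. On chromosome 8, 370 positions had at least 20 reads in each nonleukemic library and were listed in no leukemic library. Of these, 287 were listed in no Tet2(-/-) library and 336 in no Nras(G12D) library. Nonleukemic replicate 1 listed 349 positions on chromosome Y, while the other 5 libraries of the comparison listed 2 to 18.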

How the results depend on the processing

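Mean differences kept their direction under every alternative run over all CpGs (-3.77 to -2.04 points), at 20 to 80% (-9.20 to -7.63) and over 80% (-6.53 to -4.76). Weighted by coverage, leukemic replicates 1, 2 and 3 were -3.02, -3.86 and -4.42 points from the nonleukemic mean, which made replicate 3 the lowest. Under 20% the difference was near 0 and turned positive with strand positions apart (0.000626), with chromosome X (0.0614) and with classes set on Tet2(-/-) (0.00737), and ran from -0.0520 to 0.0432 with 1 library left out. Counts of calls, lower and higher, moved most. The number of tiles called lower and of tiles called higher was 2399 and 90 at equal depth, 0 and 0 by limma, 15163 and 748 by Fisher's exact test on pooled reads, 3480 and 101 with all 12 libraries, and 574 and 24 with at least 5 CpGs. With at least 20 points, 28 tiles were higher. CpGs numbered 34084 and 3557 by Fisher's exact test and 1116 and 41 with 12 libraries. Promoters numbered 66 and 15 by Fisher's exact test, which counts reads as replicates, and 0 lower by limma and without chromosomes 3, 4, 6 and 8. With 1 library left out, lower and higher tiles ranged over 53 to 6484 and 2 to 199, CpGs over 0 to 185 and 0 to 10, and promoters over 0 to 13 and 0 to 2. With the replicate block, 0 tiles were lower, 0 higher and 0 promoters lower. The tile deviations of same-numbered libraries had r = -0.0034, 0.0125 and 0.0183, and those of differently numbered ones -0.0231 to 0.0105. Such values cannot tell whether same-numbered libraries share a batch or a preparation, which was not tested. Among single promoters the sign turned with 1 library left out at promoter Tet2 (-0.0507 to 0.228, below 0 without leukemic replicate 1) and, without leukemic replicate 2, at promoter Csf2ra (-18.7 to 4.23), promoter Spry2 (-0.241 to 0.588) and promoter Tcf7 (-0.0545 to 0.468). The cause was not tested. A coverage minimum of 20 reads left 0 CpGs called.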
